A study of Rattus norvegicus with 12 samples.

Results

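In nucleus accumbens shell RNA from rats that had self-administered cocaine, 217 of the 41064 listed Ensembl transcripts were abundant in some rats of a group and had 0 counts in another rat of that group. The transcripts were chosen by their raw counts, so that a transcript was taken when at least 1 rat had 1000 or more counts and another rat of the same group had 0, and it was left out when all 3 rats of any group had 0. Of the 3261 transcripts with 1000 or more counts in at least 1 rat, 257 met the high count and the 0 within a group, and 40 of these were left out because a whole group had 0. The zeros, the high counts and the spread within a group therefore chose the transcripts, and they are described below without a test.

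The nucleus accumbens shell is a part of the ventral striatum that takes part in the motivation to seek drug and in the response to drug-paired cues. A gene is often transcribed into several alternative RNAs, called isoforms, which share most of their sequence and can differ in coding region, start or end. Short reads that match more than 1 isoform or a near-identical gene copy have to be divided by the quantification program, so the count of a single transcript depends on that division as well as on how much of the RNA was present.

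The 12 rats were adult male Sprague-Dawley rats, 3 in each of 4 groups, and every rat had self-administered cocaine and had taken a cue reactivity test of 1 h just before the brain was removed. Rats in IC1D and IC21D stayed in isolation for 1 or 21 days of forced abstinence, and rats in EE1D and EE21D spent 1 or 21 days in an enriched environment, a group cage with a running wheel and toys. No group without cocaine was sequenced here, the punches from both sides of the brain were pooled for each rat, and which enriched rats shared a cage is not given in the sources used here. Rats are named by their animal codes, A2, A20 and A23 in IC1D, A9, A24 and A3 in IC21D, A12, A16 and A27 in EE1D, and A13, A14 and A1 in EE21D, and a series of 12 values is always given in this order.

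Each library held 11725831 to 26975339 counts. A24 stood apart from the other libraries in the number of transcripts with at least 1 count, which was 13936 in A24 and between 19571 and 23306 in the other 11 rats. Its counts outside the 8 largest transcripts, 4714969, were also the fewest. The next fewest were the 5309091 of A12, where 36 of the 217 transcripts were at 0. The part of depth in the zeros of A24 was not tested. The list rested on A24 more than on any other rat and held 138 transcripts without A24, against 171 to 205 when another rat was left out. It held 111 transcripts without A24 and A16. The files do not pair the identifiers with gene names, and none of the identifiers matched the gene table used here, so gene identities, the other isoforms of each gene, sequences and the markers of accumbens neurons and other cell types were not examined.

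Among the 217 transcripts, 141 met the rule in IC21D, 60 in IC1D, 58 in EE1D and 54 in EE21D. The 141 were 6.49% of the 2174 transcripts with 1000 or more counts in a rat of IC21D, and the corresponding share was 2.20% of 2723 transcripts in IC1D, 3.03% of 1914 in EE1D and 1.86% of 2911 in EE21D. Most of the IC21D transcripts had their 0 in a single rat, as 121 of the 141 had 0 counts in A24 and 99 had 0 in A24 but in neither A9 nor A3. Without A24 the number in IC21D fell to 38. A single group met the rule for 148 transcripts, while 46 transcripts met it in 2 groups, 19 in 3 groups and 4 in all 4 groups.

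The zeros were spread over all 12 rats, with A24 far above the rest. The number of the 217 transcripts at 0 was 142 in A24, 76 in A16, 55 in A23, 44 in A3 and between 22 and 36 in the other 8 rats, with the fewest in A13. A24, A16 and A23 were also the rats with the 3 lowest scaling factors by the trimmed mean of M values (TMM), 0.617, 0.715 and 0.828, against 0.912 to 1.25 in the other 9 rats, and the part of this in the zeros was not tested. Counts of 1000 or more were reached by 16 of the 217 transcripts in A24 and by 51 in A16, while A13 reached them for 130. Among the other 3044 transcripts with 1000 or more counts in some rat, 100 had 0 counts in A24, 64 in A16 and between 22 and 46 in each of the other 10 rats.

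**Figure D1:**
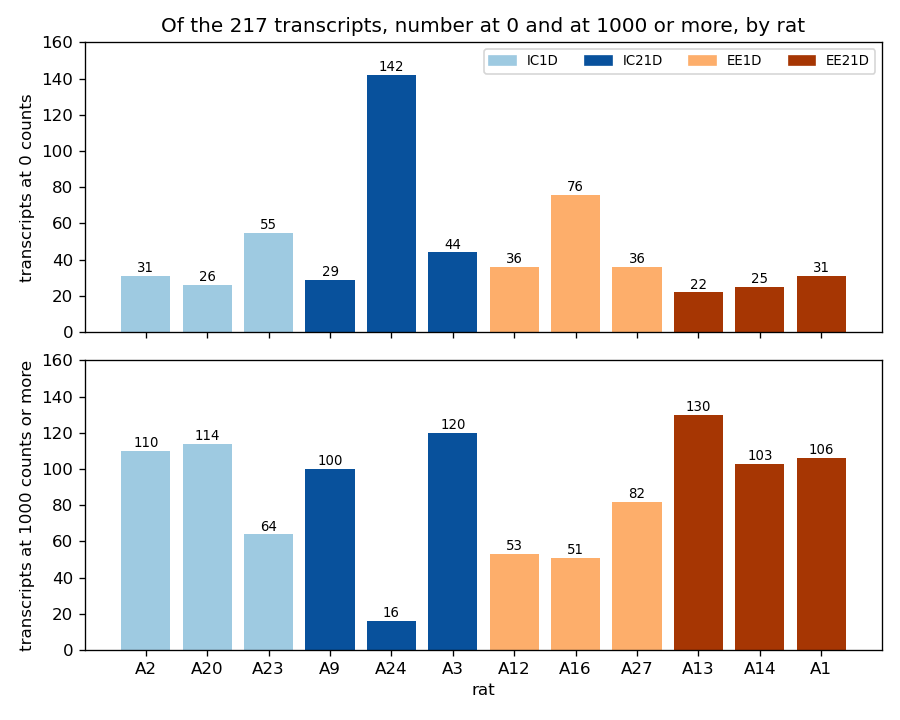
Number of the 217 transcripts at 0 counts (upper bars) and at 1000 counts or more (lower bars) in each rat, coloured by group. A24 has 142 transcripts at 0 and 16 at 1000 or more, while A13 has 22 and 130.

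Transcripts were at 0 in 1 to 8 of the 12 rats. A single rat held the only 0 for 86 transcripts, 44 were at 0 in 2 rats and 87 in 3 or more rats. The rats at 0 formed 105 different sets, of which 77 were held by 1 transcript each. The most frequent sets were A24 alone, with 60 transcripts, A16 alone, with 9, and A24 with A16, with 9. Of the 2604 values of a transcript in a rat, 553 were 0, 81 lay from 1 to 9 and 150 from 10 to 99. A further 771 were at 100 or more but under 1000, and 1049 were at 1000 or more. The rule itself requires a 0 and a count of 1000 or more in each transcript. In 28 transcripts every rat that was not at 0 had 1000 or more counts. At the threshold itself, ENSRNOT00000067405 and ENSRNOT00000087611 were inside the list with 1001 counts in a rat of IC21D, and ENSRNOT00000040187 was just outside it with 996.

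**Figure D2:**
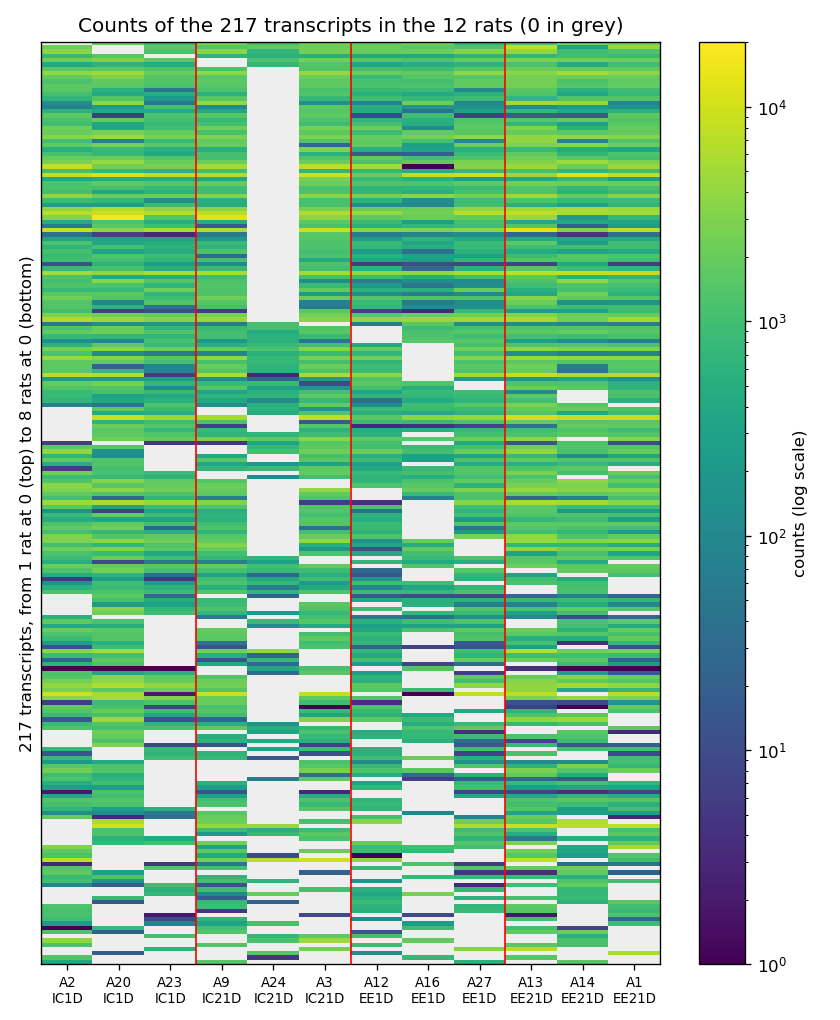
Counts (colour, log scale, 0 in grey) of the 217 transcripts in rows and the 12 rats in columns, with red lines between groups and rows ordered from 1 rat at 0 to 8 rats at 0. The grey block in the A24 column near the top is the 60 transcripts at 0 in A24 alone, and below it the grey cells scatter over all rats and all 4 groups.

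The first large set consisted of transcripts that had 0 counts in A24 alone, not all of them abundant in every other rat. ENSRNOT00000066174, for instance, had 1 count in A16, and ENSRNOT00000082844 had 3 in A23. ENSRNOT00000080788 had 7071, 8550 and 6895 counts in IC1D, 7082, 0 and 6231 in IC21D, 4394, 2532 and 6940 in EE1D and 7843, 5368 and 5143 in EE21D. Expressed as CPM, the count relative to the TMM-scaled library size (scaled CPM below), the level was 274 ± 66.8 (SD, n = 11) in the rats other than A24. Rats of IC1D lay at 301 to 375 scaled CPM and rats of EE21D, all lower, at 199 to 259. IC21D without A24 and EE1D overlapped both of these ranges. A24 was the only rat at 0, where up to 3 counts, or 0.252 scaled CPM, would not have been told from 0 by counting error alone. ENSRNOT00000087712 was steadier still, with 5287, 3882 and 5663 counts in IC1D, 5588, 0 and 5183 in IC21D, 3621, 3864 and 5502 in EE1D and 7570, 8198 and 8136 in EE21D. Its level in the 11 rats was 251 ± 51.8 scaled CPM (SD, n = 11).

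ENSRNOT00000068150 had the highest median of this set over the 11 rats, while ENSRNOT00000081482 reached the highest single count, 16883 in A20. ENSRNOT00000068150 had 7966, 11105 and 7303 counts in IC1D, 6223, 0 and 9361 in IC21D, 2027, 7615 and 8624 in EE1D and 4292, 12662 and 7384 in EE21D, which gave 338 ± 113 scaled CPM (SD, n = 11) in the rats other than A24. ENSRNOT00000082672 had 9201, 3520 and 5702 counts in IC1D, 6259, 0 and 8870 in IC21D, 3281, 3047 and 3880 in EE1D and 13429, 3030 and 7534 in EE21D. Both transcripts had 2027 counts or more in every rat but A24, and the other 2 rats of IC21D lay inside the joint range of IC1D and EE21D.

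Of the 60 transcripts at 0 in A24 alone, 39 had 100 or more counts in each of the other 11 rats and 15 had 1000 or more. At the median scaled level of the other 11 rats, A24 would have held 7.89 to 4535 counts of these transcripts, with a median of 501. The lower depth of A24 is included in that value. Over all listed transcripts, 195 had 100 or more counts in the other 11 rats and 0 in A24, against 17 for A16 and 3 to 11 for each of the other 10 rats. The number of transcripts with at least 1 count was also lowest in A24, at 13936, and the part of the library as a whole in these zeros was not tested. In bulk tissue a smaller number of cells of a type and less RNA in each cell cannot be told apart.

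**Figure D3:**
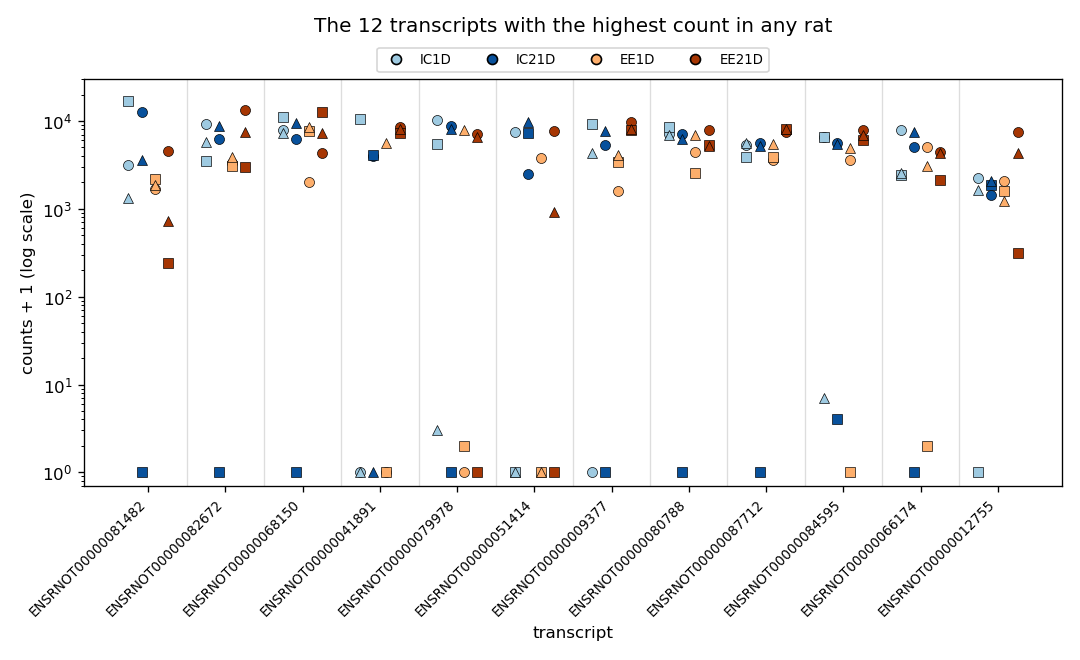
Counts plus 1 (log scale) of the 12 transcripts with the highest count in any rat, with 1 point per rat, coloured by group, and with the circle, square and triangle marking replicates 1, 2 and 3 of a group. A24 is the dark blue square, at the level of 0 counts for ENSRNOT00000080788 and ENSRNOT00000087712 while the lowest of the other rats is at 2532 and 3621.

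The same kind of gap occurred in other rats, less often. ENSRNOT00000026949 was missing from A16 alone, with 4488, 3222 and 1474 counts in IC1D, 3856, 769 and 2685 in IC21D, 2391, 0 and 3116 in EE1D and 4343, 4061 and 3691 in EE21D. ENSRNOT00000058092 was missing from A9 alone, with 2299, 2915 and 1617 counts in IC1D, 0, 1151 and 2451 in IC21D, 1508, 1322 and 1904 in EE1D and 2722, 2273 and 2184 in EE21D. In ENSRNOT00000058092 it was A9 that had none while A24 had 1151 counts, so A24 was not the rat at 0 for every transcript of IC21D. ENSRNOT00000012755 was missing from A20 alone, with 2221, 0 and 1620 counts in IC1D, 1437, 1870 and 2080 in IC21D, 2088, 1612 and 1235 in EE1D and 7477, 317 and 4304 in EE21D. In all, 26 transcripts were at 0 in 1 rat other than A24.

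A24 did hold counts of 75 of the 217 transcripts and had 1000 or more of 16. ENSRNOT00000051414 reached 7318 counts in A24, beside 2512 in A9 and 9714 in A3. In the other groups it had 7545, 0 and 0 counts in IC1D, 3783, 0 and 0 in EE1D and 7670, 0 and 924 in EE21D. All 3 rats of IC21D had this transcript, while 5 of the other 9 rats had none, and the other groups each held both a rat at 0 and a rat at 3783 counts or more.

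The second large set was present in some rats and missing from several others, with little in between. In 135 of the 217 transcripts every rat had either 3 or fewer or 100 or more counts, as in 838 of all transcripts with rats on both sides. The 135 include the 39 transcripts described above that were at 0 in A24 alone with 100 or more counts in every other rat, and in 49 of the 135 both sides held at least 3 rats. The count of 3 is the floor used here for a value not told from 0. Where such a transcript was present its level could be steady. Of the 87 transcripts at 0 in 3 or more rats, 13 had a coefficient of variation (CV) under 25% over the rats with counts. Among all 217 transcripts 44 did, so such steadiness was not particular to this set. The CV over the rats with counts ran from 5.62% to 268% in all 217 transcripts, with a median of 48.9%.

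The steadiest was ENSRNOT00000030803, which had 0, 1219 and 0 counts in IC1D, 922, 509 and 899 in IC21D, 0, 0 and 935 in EE1D and 1281, 0 and 1102 in EE21D. The 7 rats with counts came from all 4 groups and lay between 37.3 and 44.9 scaled CPM, with a mean of 42.0 ± 2.36 (SD, n = 7) and a CV of 5.62%. A24 was among them, and its 509 counts came to 42.7 scaled CPM. ENSRNOT00000007073 had 1337, 1396 and 0 counts in IC1D, 984, 0 and 1237 in IC21D, 706, 0 and 0 in EE1D and 1222, 1470 and 1450 in EE21D, and its level in the 8 rats with counts was 50.9 ± 5.86 scaled CPM (SD, n = 8). Its zeros were in A23, A24, A16 and A27, which belong to 3 groups. These rats also had the 4 lowest TMM factors, 0.617 to 0.912, and the part of this in its zeros was not tested.

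Some of these transcripts were mirrored by another transcript that was present in just the rats that lacked them. Pairs were searched over all transcripts, after the values were seen, for those in which every rat had 100 or more counts of one and 3 or fewer of the other, and they are a description. With at least 5 rats on each side there were 9 such pairs, and 5 of the 9 held at least 1 of the 217 transcripts, 6 transcripts in all. With at least 3 rats on each side there were 49 pairs, of which 18 held 1 or more of 17 of the 217 transcripts.

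The most abundant mirrored transcript was ENSRNOT00000041891, with 0, 10411 and 0 counts in IC1D, 3966, 4111 and 0 in IC21D, 0, 0 and 5682 in EE1D and 8471, 7209 and 8052 in EE21D. ENSRNOT00000080453 had 6643, 0 and 3674 counts in IC1D, 0, 0 and 6853 in IC21D, 4803, 2139 and 0 in EE1D and 0, 0 and 0 in EE21D. Each rat thus had 2139 counts or more of 1 of these transcripts and 0 of the other. ENSRNOT00000041891 was at 289 ± 58.6 scaled CPM in its 7 rats (SD, n = 7) and ENSRNOT00000080453 at 246 ± 80.4 in its 5 rats (SD, n = 5), and the sum of the pair was 271 ± 68.6 over all rats (SD, n = 12). ENSRNOT00000080453 is not on the list because all 3 rats of EE21D had 0.

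In 1 pair both transcripts were on the list. ENSRNOT00000088624 had 0, 747 and 1060 counts in IC1D, 2473, 0 and 0 in IC21D, 1960, 0 and 1396 in EE1D and 2927, 0 and 1875 in EE21D. ENSRNOT00000023890 had 3705, 0 and 0 counts in IC1D, 0, 1228 and 4639 in IC21D, 0, 1866 and 0 in EE1D and 0, 1175 and 0 in EE21D. Every group held rats of both kinds, 2 with 1 transcript and 1 with the other, and the sum was 98.6 ± 49.1 scaled CPM (SD, n = 12).

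The mirrored levels were not always alike. ENSRNOT00000030803 was the mirror of ENSRNOT00000005272, whose 5 rats lay at 12.7 ± 1.71 scaled CPM (SD, n = 5) against 42.0 for ENSRNOT00000030803 in the other 7. ENSRNOT00000005272 also mirrored ENSRNOT00000077910, which was present in the same 7 rats as ENSRNOT00000030803 at 45.6 ± 24.1 scaled CPM (SD, n = 7). ENSRNOT00000091697 was at 139 ± 81.6 scaled CPM in 7 rats (SD, n = 7) and its mirror ENSRNOT00000079640 at 47.0 ± 25.9 in the other 5 (SD, n = 5). Whether the transcripts of a pair belong to 1 gene was not examined, because the identifiers were not paired with genes.

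**Figure D4:**
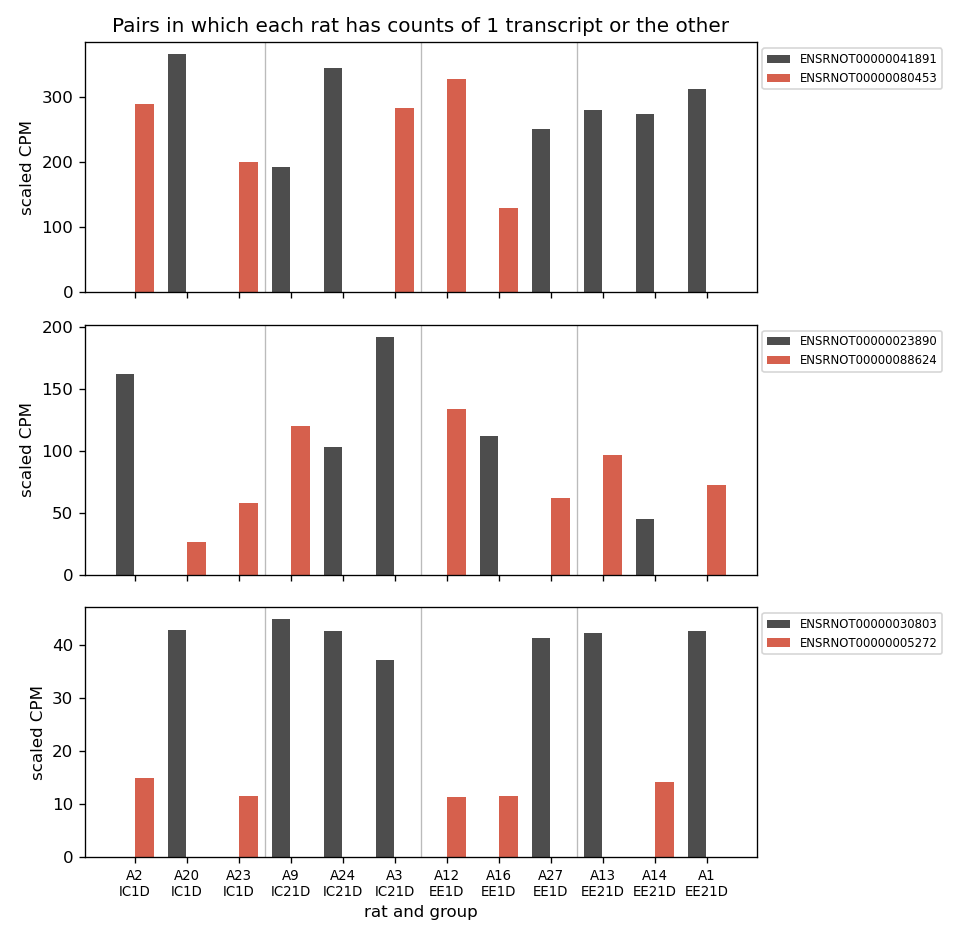
Scaled CPM in each rat, in the order of the groups, of the transcripts of 3 mirrored pairs (grey and red bars). In each pair every rat has a bar of 1 transcript only, and the grey bars of ENSRNOT00000030803 lie between 37.3 and 44.9 scaled CPM.

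A smaller set had near copies in the table. In 4 pairs of transcripts, holding 7 of the 217, the counts of both differed by no more than 2% in at least 6 rats. ENSRNOT00000004235 had 1386, 3340 and 1692 counts in IC1D, 1351, 0 and 0 in IC21D, 660, 0 and 1810 in EE1D and 1929, 3607 and 2020 in EE21D. ENSRNOT00000075249 had 1386, 3334 and 1694 counts in IC1D, 1346, 0 and 0 in IC21D, 658, 1235 and 1806 in EE1D and 1925, 3606 and 2016 in EE21D. In the 9 rats that had both, the pair differed by at most 6 counts, and in A16 alone ENSRNOT00000004235 had 0 while ENSRNOT00000075249 had 1235.

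The level of ENSRNOT00000075249 in A16 was 74.4 scaled CPM, inside the range of either transcript in the 9 rats with both, 44.9 to 137. ENSRNOT00000005535 had 2819, 3554 and 2374 counts in IC1D, 1797, 0 and 4082 in IC21D, 155, 1917 and 0 in EE1D and 4368, 3277 and 3435 in EE21D. ENSRNOT00000005601 had 2895, 3555 and 2378 counts in IC1D, 1938, 0 and 4084 in IC21D, 0, 1917 and 2991 in EE1D and 4367, 3273 and 3435 in EE21D. Here A12 lacked ENSRNOT00000005601 and A27 lacked ENSRNOT00000005535, while A24 lacked both.

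Another pair was ENSRNOT00000014441 with ENSRNOT00000074912. ENSRNOT00000014441 had 0 counts in A24, where ENSRNOT00000074912 had 479, and ENSRNOT00000074912 had 0 in A2 and A9, where ENSRNOT00000014441 had 1052 and 588. The level of the transcript that was present in these 3 rats was 28.7 to 46.0 scaled CPM, and the level of either transcript in the 9 rats with both was 14.1 to 56.4, with a median of 26.5. In none of these 3 pairs was the level in a rat with 1 transcript above the range of a single transcript in the rats with both. These ranges were wide, so a level raised by reads of the missing transcript could lie inside them. Whether reads had moved between the transcripts was not tested. The counts of all 7 transcripts are uncertain, since reads that match both members of a pair could have been divided between them.

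**Figure D5:**
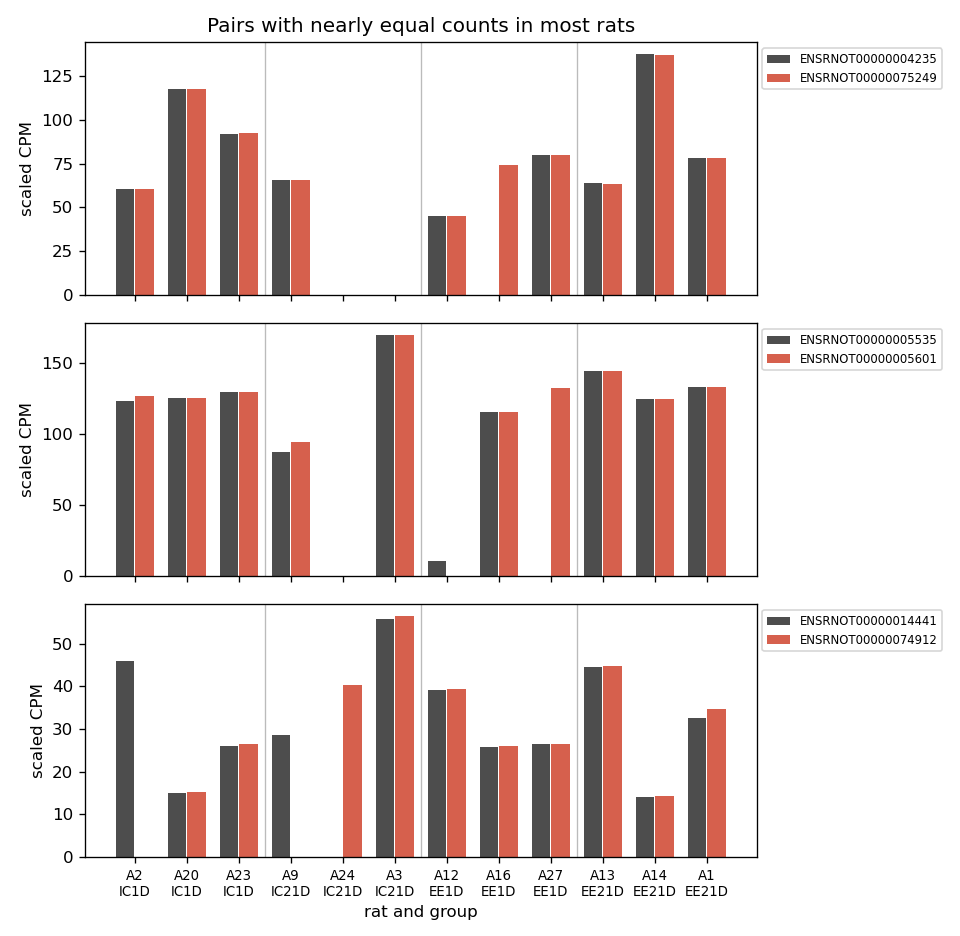
Scaled CPM in each rat of the transcripts of 3 pairs with nearly equal counts (grey and red bars). The bars of a pair are of nearly equal height in the 9 rats with both, and in the rats with a single bar its height is within or below the range of the paired bars.

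For each of the 217 transcripts the transcript most like it was sought by rank correlation over the 12 rats. The counts were ranked relative to the unscaled library totals, without the TMM factors, so these values are not for scaled CPM. The best Spearman's rho among the 28622 transcripts with at least 1 count ran from 0.782 to 1.00, with a median of 0.950, and reached 0.9 for 191 of the 217. For ENSRNOT00000080788 it was ENSRNOT00000007824 (rho = 0.965, n = 12 rats). For ENSRNOT00000041891 it was ENSRNOT00000059124 (rho = 0.922, n = 12 rats), which had 11 counts at most and 0 in A24 and A27, where ENSRNOT00000041891 had 4111 and 5682, so that this value rests on ties and on counts near the floor. The most similar transcript was itself one of the 217 in 6 cases. With 12 points and so many candidates, values of this size are a description, and the points share library depth.

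The groups were compared for every transcript with edgeR's quasi-likelihood test on TMM-scaled libraries and Benjamini-Hochberg adjustment over all 28622 transcripts. Between 21 and 1 days of abstinence and between EE and IC housing (6 rats against 6 in each), in the Incubation contrast of IC21D with IC1D, in the Enrichment contrast of EE21D with IC21D, and in the interaction of both factors, 0 of the 217 transcripts had an adjusted p under 0.05, and 0% of all transcripts did. The Incubation and Enrichment contrasts share the rats of IC21D. The smallest adjusted p among the 217 was, by edgeR and in this order, 1, 1, 0.843, 0.968 and 0.900. The rule chose transcripts with a wide spread between rats of a group, and the tests weigh differences against that spread. As a CV, edgeR's estimate of this spread had a median of 1.57 in the 217 transcripts. In the other 3044 transcripts with 1000 or more counts in a rat the median was 0.325. Few or no calls, here and below, therefore follow in part from the choice of transcripts.

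At an unadjusted p of at most 0.05 edgeR gave 0 of the 217 transcripts for abstinence length (2.4% of all transcripts), 2 for housing (2.49%), both lower in EE, 7 for Incubation (4.47%), 3 higher and 4 lower, 5 for Enrichment (3.33%), 3 higher and 2 lower, and 10 for the interaction (5.15%), 7 higher and 3 lower. DESeq2 gave an adjusted p to 192 of the 217 transcripts for abstinence length and for housing and to 187 in the other 3 comparisons, and the shares in parentheses below are of all transcripts with one. At an adjusted p under 0.05 its Wald test called 0 for abstinence length (0.0536%), 0 for housing (0.0561%), 1 for Incubation (0.812%), 0 for Enrichment (0.699%) and 3 for the interaction (1.08%). The median log2 fold change of the 217 by edgeR, beside that of all transcripts tested, was -0.02 beside -0.04 for abstinence length, 0.07 beside 0.05 for housing, -0.18 beside -0.06 for Incubation, 0.32 beside 0.10 for Enrichment and 0.30 beside 0.20 for the interaction. The last 3 of these comparisons all contain A24 among 3 rats of IC21D, where 142 of the 217 transcripts were at 0.

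Whether groups separate depends on the rule, which requires rats at 0 and at 1000 or more counts within a group, and the numbers that follow are given as a description. No transcript of the 217 had all 6 rats of 1 abstinence length or of 1 housing condition above all 6 of the other in scaled CPM (0.0594% and 0.0978% of all transcripts did so). All 3 rats of IC21D lay apart from all 3 rats of IC1D in 13 of the 217, or 5.99% (7.91% of all transcripts), 3 higher and 10 lower, and all 3 rats of EE21D lay apart from IC21D in 8, or 3.69% (7.71% of all transcripts), 5 higher and 3 lower.

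The transcript with the smallest p for housing by edgeR was ENSRNOT00000082403, with 1230, 681 and 0 counts in IC1D, 0, 65 and 1740 in IC21D, 0, 6 and 20 in EE1D and 28, 16 and 0 in EE21D. The 3 rats with 681 counts or more were all isolated, yet isolated rats A23 and A9 had 0, so the housing groups overlapped. The log2 fold change (EE over IC) was -5.77 (SE 1.76) with an unadjusted p of 0.00687 and an adjusted p of 1 by edgeR, the adjusted p was 0.258 to 1 over its alternatives, and an exact permutation test of the scaled CPM gave p = 0.0606 (two-sided, 6 rats against 6). ENSRNOT00000078108 had 6, 915 and 1149 counts in IC1D, 2029, 0 and 936 in IC21D, 4, 0 and 0 in EE1D and 12, 9 and 174 in EE21D. Its 4 rats with 915 counts or more were isolated, A24 and A2 were at 6 or fewer, and the log2 fold change was -5.90 (SE 1.85) with an adjusted p of 1 by edgeR, 0.0679 to 1 over its alternatives.

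DESeq2 called ENSRNOT00000016175 in the Incubation contrast and in the interaction. This transcript had 1, 1 and 1 counts in IC1D, 0, 393 and 1106 in IC21D, 0, 1336 and 0 in EE1D and 4, 1 and 1 in EE21D. The counts in IC21D came from A24 and A3, A9 had 0, and IC21D and IC1D overlapped. The adjusted p for Incubation was 0.0363 by DESeq2 and 0.843 by edgeR, and it ran from 0.0363 to 1 over the alternatives. In the interaction it was 0.000183 by DESeq2, the smallest of the 217, and 0.900 by edgeR, with 0.000183 to 1.00 over the alternatives. ENSRNOT00000065644, also called by DESeq2 in the interaction, had 102, 19 and 1001 counts in IC1D, 13, 0 and 0 in IC21D, 0, 0 and 3 in EE1D and 959, 1847 and 0 in EE21D. Its adjusted p in the interaction was 0.00152 by DESeq2 and 0.900 by edgeR, and 0.00152 to 1.00 over the alternatives, and EE21D itself held rats at 0 and at 1847 counts.

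Leaving out 1 rat changed the edgeR calls of 5 transcripts. In each, that rat was the only one of its group with counts, so the remaining rats were all at 0 and the transcript was then outside the list. These p-values follow from the zeros that chose the transcripts and are given as a description that supports nothing further. ENSRNOT00000065729 had 1278, 1213 and 916 counts in IC1D, 1368, 667 and 1320 in IC21D, 839, 795 and 1244 in EE1D and 0, 1256 and 0 in EE21D, with 53.4 ± 6.64 scaled CPM in the 10 rats with counts (SD, n = 10). EE21D rats A13 and A1 were at 0, and A14 was at the level of the other groups. Its adjusted p by edgeR in the Enrichment contrast was 0.980 with all rats and 1.05e-05 without A14, and over the other alternatives 0.0525 to 1. ENSRNOT00000012005 had 2198, 1793 and 1525 counts in IC1D, 1878, 1011 and 1757 in IC21D, 0, 1356 and 0 in EE1D and 2236, 1560 and 1825 in EE21D. EE1D rat A16 alone kept this transcript at the level of the other groups, and the adjusted p by edgeR in the interaction was 1.00 with all rats and 5.99e-05 without A16, and 0.188 to 1.00 over the other alternatives.

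The rats left out in IC21D were A9 and A3. ENSRNOT00000075249, at 0 in A24 and A3, and ENSRNOT00000090663, with 2046 counts in A9 and 0 in A24 and A3, had adjusted p-values by edgeR of 0.853 and 0.919 in the Incubation contrast with all rats and of 0.000644 and 0.00849 without A9, and over the other alternatives the values were 0.568 to 1 and 0.684 to 1. ENSRNOT00000042654, with 1827 counts in A3 and 0 in A9 and A24, had 0.962 with all rats and 0.00382 without A3, and 0.733 to 1 over the other alternatives.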

How the data were processed

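The authors aligned reads to the Ensembl release 92 rat genome with HISAT2 2.1.0 and quantified reference transcripts with StringTie 1.3.3.1 before and after merging the assemblies, as the paper and the submitters' processing notes state, and deposited 1 whole-number count per transcript and rat, without normalization. How coverage became counts is not given in the sources used here. Groups came from the labels for housing and abstinence length. Counts were tested in R 4.3.3 with edgeR 4.0.16 (TMM, quasi-likelihood, over 28622 transcripts with at least 1 count), as an additive model of housing and abstinence length and as a model of 4 groups. DESeq2 1.42.0, limma 3.58.1 (voom), other scalings, a filter and leaving out rats were alternatives. The models were tested on simulated data with a low spread between rats, below that of any of the 217 transcripts. That test therefore does not cover transcripts as variable as these. The named transcripts were those with the highest counts in any rat, those highest in each group, those of highest median among the transcripts missing from 1 rat, the 3 with the smallest p in each comparison and those nearest the threshold, and only some are printed. The transcripts in pairs, with steady levels or with calls decided by 1 rat were chosen after their values were seen. The list and its rules were chosen with earlier results of these data known. Sums per gene, fixed gene lists and marker checks were not run, because no table used here pairs transcripts with genes.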

Additional observations from a re-analysis of the deposited data

Results flagged for a closer look

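ENSRNOT00000028247 was picked out because its samples lay in opposite order at 1 and 21 days in the isolated and the enriched groups, without passing a test. It had 3312, 4999 and 3000 counts in IC1D, 2039, 0 and 1623 in IC21D, 1287, 0 and 0 in EE1D and 2884, 4129 and 2832 in EE21D. In scaled CPM every rat of IC21D lay below every rat of IC1D, and every rat of EE21D lay above every rat of EE1D. The gap between the enriched groups was narrow, with 87.7 scaled CPM in A12 and 95.3 in A13. Relative to the unscaled library totals A12 lay above A13, so the enriched groups then overlapped. The share of all transcripts with such an opposite order was not counted. The difference between these changes was 3.58 on the log2 scale (SE 3.03) and did not pass edgeR's test of the interaction (unadjusted p = 0.263, adjusted p = 1.00). The 3 rats at 0 were A24, A16 and A27, so the order rests in part on zeros that chose the transcript, and different rats were measured at each time.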

How the results depend on the processing

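The list held 217 transcripts as defined, 490 with a threshold of 500 counts, 63 with 2000, 326 when the high count and the 0 could be in any 2 of the 12 rats and 111 without A24 and A16, which was chosen after the values were seen. Leaving out 1 rat gave 138 (A24) to 205 (A13). Taking 3 or fewer counts as missing gave 236, of which 214 were shared with the list, and scaling by TMM library sizes gave 207, of which 192 were shared. With that scaling 146 met the rule in IC21D, 52 in IC1D, 78 in EE1D and 37 in EE21D. The numbers on raw counts were 141, 60, 58 and 54, so the distance between EE1D and EE21D depended on the scaling. Of the 217 transcripts, edgeR called 0 in each comparison. The wide spread within a group that the rule requires works against such calls. DESeq2 called 1 in the Incubation contrast and 3 in the interaction, and an unadjusted p gave 2 for housing, 7 for Incubation, 5 for Enrichment and 10 for the interaction. Leaving out 1 rat gave 0 to 2 calls in each of the Incubation contrast, the Enrichment contrast and the interaction, and 0 for abstinence length and for housing. Other scalings, the filter and limma's voom gave 0 calls. No direction reversed among the values compared. No paired analysis was possible because the labels give no replicate numbers shared between groups. Sums per gene were not run. With 3 rats against 3 an exact permutation test cannot give a two-sided p below 0.1, and the depth of A24 limits what its zeros show for transcripts of low level.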
